A study of Mus musculus with 23 samples.

Results

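Public TRB clonotypes are T cell receptor beta chains that recur in several libraries. A clonotype was defined by its TRBV segment, its TRBJ segment and the amino acid sequence of its CDR3, with every residue resolved, and it was called public when its count was above 0 in 4 or more of the 23 libraries. The rule found 93 public clonotypes among 35389 TRB clonotypes, or 0.263%. Because the rule used presence in all 23 libraries, the sharing of these clonotypes, their distribution over libraries and their counts are described without a test, and tests were kept to measures that the rule did not use.

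The libraries came from a syngeneic mouse model grown from NIL, a melanoma cell line that carries Nras Q61R and had been exposed to ultraviolet light to raise its mutational burden. T cell receptor transcripts were amplified from total RNA. The 4 treatments were no drug (called control here), trametinib, which inhibits the kinase MEK, BGB-283, which inhibits RAF kinases, and both drugs in combination. Each was sampled at D4 and D11, with 3 libraries per group except control D11 with 2, so that all libraries share the same tumour line and the controls carry no drug. The labels name the tissue only as the cell line and do not say which organ was taken, how many animals were used or whether replicates were separate animals, so p-values measure the spread between these libraries, which may be technical. Since only receptor transcripts were measured, markers of T cell subsets were not measured here, and fewer T cells and less receptor RNA per cell cannot be told apart.

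A beta chain is assembled when a V, a D and a J segment are joined in a developing T cell. Nucleotides are trimmed from the segment ends and others are added at random, and the joint encodes CDR3, the loop that reaches the peptide held by an MHC molecule. Some amino acid sequences can be made by many different joining events, mostly those that keep germline residues and need few added ones, and such chains recur between individuals. Recurrence can also follow the growth of T cells that meet the same antigen, and sequences alone do not show the antigen.

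The most shared public clonotypes are shown first. They had 2 to 4 residues outside the commonest start of their V and the commonest end of their J in these data. The clonotypes found in 8 libraries, next in order, had 4 to 6. The 5 clonotypes found in 9 to 15 libraries had the following CDR3 amino acid sequences, written from the conserved cysteine to the conserved phenylalanine.
TRBV13-2/TRBJ1-1, 15 libraries: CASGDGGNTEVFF
TRBV19/TRBJ2-4, 13 libraries: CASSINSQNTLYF
TRBV2/TRBJ2-5, 12 libraries: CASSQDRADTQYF
TRBV12-2/TRBJ2-5, 12 libraries: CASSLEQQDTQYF
TRBV1/TRBJ2-7, 9 libraries: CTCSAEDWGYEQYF

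Most public clonotypes sat at the edge of the rule. Of the 93, 56 were found in exactly 4 libraries, 14 in 5 and 23 in 6 or more, and 171 further clonotypes were found in 3 libraries and stayed outside. The members in exactly 4 libraries had a median highest share of 0.0872% of TRB counts, against 0.0656% for the clonotypes in 3 libraries. All 93 were found in at least 2 treatments: 26 in 2, 47 in 3 and 20 in all 4. By treatment, 86 were found in combination libraries, 76 in trametinib, 72 in BGB-283 and 39 in control, which had fewer libraries and the fewest TRB clonotypes. At both days 87 were found, and 3 were found at D4 alone and 3 at D11 alone.

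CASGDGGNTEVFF of TRBV13-2/TRBJ1-1 was the most widely shared. Its share of TRB counts in the control D4 libraries was 1.08%, 0.117% and 0.181%, and it was listed at 0 in both control D11 libraries. In trametinib libraries it reached 1.43% in D4 replicate 3, 0.736% in D11 replicate 1 and 0.612% in D11 replicate 3, with 0 in the other 3. In BGB-283 libraries it was lower where found, at 0.0412% and 0.550% at D4 and 0.310% and 0.0255% at D11. All combination D4 libraries held it, at 1.99%, 0.119% and 0.207%, and so did 2 at D11, at 1.01% and 0.158%. The values overlapped between all 4 treatments, and 2 residues, GG, lay between the start and the end common to its V and J.

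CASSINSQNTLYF of TRBV19/TRBJ2-4 was found in 13 libraries and stood out in 2 of them. Its shares were 2.73% in BGB-283 D4 replicate 3 and 1.11% in combination D4 replicate 2, and 0.0477% to 0.484% in the other 11. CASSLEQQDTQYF of TRBV12-2/TRBJ2-5 was found in 12 libraries, among them 5 of 6 BGB-283 libraries at 0.0208% to 0.863%, all 3 trametinib D4 libraries at 1.19%, 0.678% and 0.335%, and trametinib D11 replicate 3 at 0.401%. Only 1 of 6 combination libraries held it, at 0.00474%, a count of 13. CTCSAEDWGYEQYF of TRBV1/TRBJ2-7 was highest in BGB-283 D4 replicate 1 at 2.33% and BGB-283 D11 replicate 1 at 0.866%. It lay between 0.0150% and 0.430% in the other 7 libraries that held it.

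**Figure D1:**
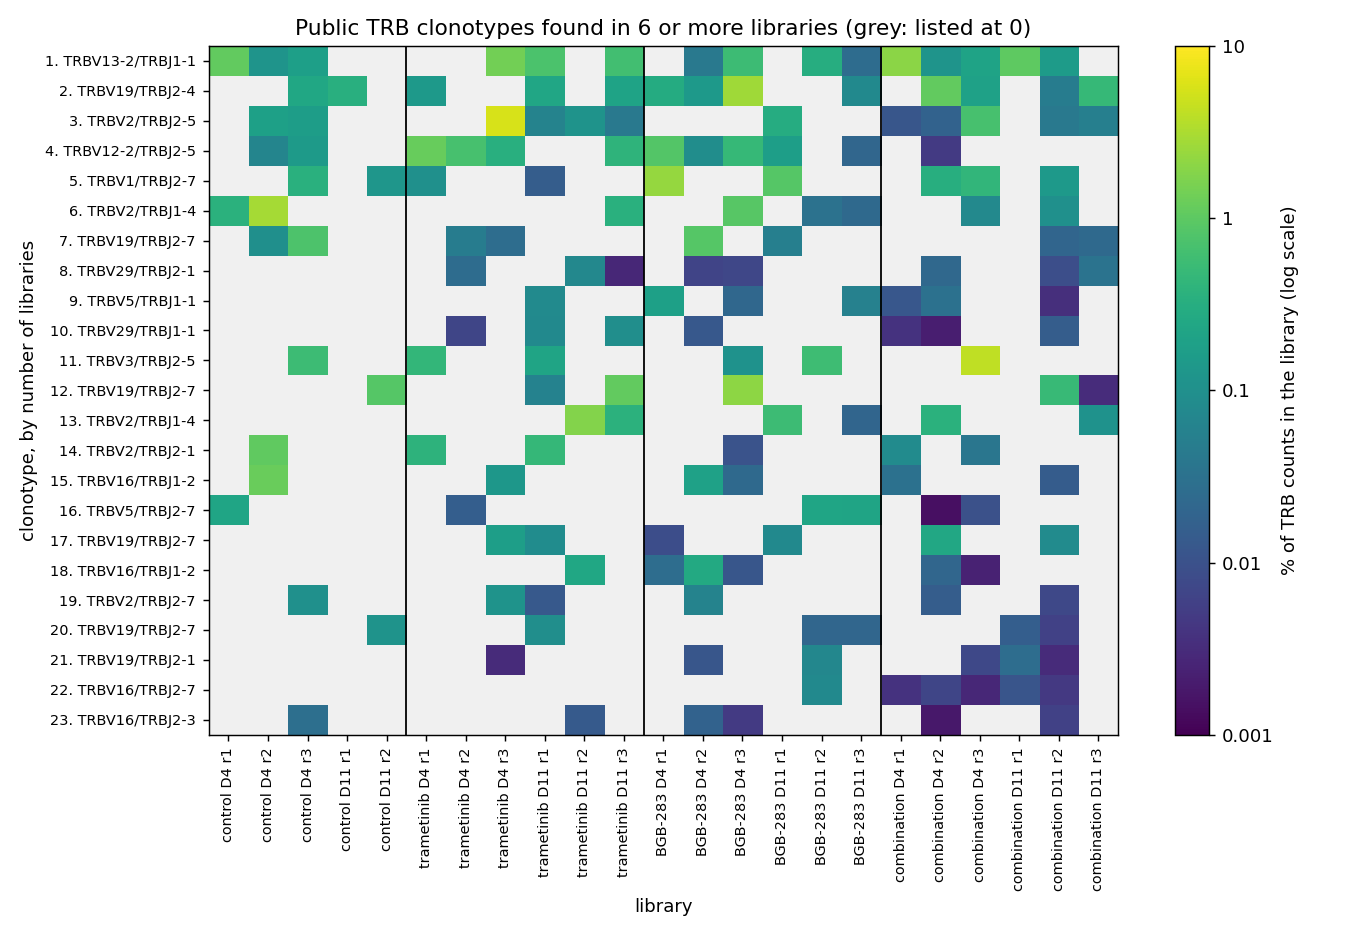
Share of TRB counts (colour, log scale, percent) of the 23 public clonotypes found in 6 or more libraries (rows, named by V and J segment and ordered by number of libraries) in each of the 23 libraries (columns, r for replicate, lines between treatments); grey marks a count of 0. The first row, TRBV13-2/TRBJ1-1, is present in 15 libraries, and no row is present in all 23.

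The TRBV2 members were few and large. They are shown because all 5 start with CASSQ followed by D or E and then R, a start chosen after the values were seen and held by 164 TRB clonotypes in all.
TRBV2/TRBJ2-5, 12 libraries, highest share 5.76%: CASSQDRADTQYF
TRBV2/TRBJ2-1, 6 libraries, highest share 1.06%: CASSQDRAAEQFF
TRBV2/TRBJ2-7, 6 libraries, highest share 0.115%: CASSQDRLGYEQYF
The other 2 are TRBV2/TRBJ1-4 chains of 16 residues, called here by their starts: CASSQDR, in 8 libraries with a highest share of 2.92%, and CASSQER, in 6 libraries with a highest share of 1.82%.

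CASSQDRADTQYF made up 5.76% of counts in trametinib D4 replicate 3. It lay at 0.190% and 0.167% in control D4 replicates 2 and 3, at 0.679% in combination D4 replicate 3 and at 0.296% in BGB-283 D11 replicate 1, the 1 BGB-283 library with it. In the other 7 libraries that held it the share was 0.0119% to 0.114%, so 1 library held most of its counts. The CASSQDR chain with TRBJ1-4 was 2.92% of control D4 replicate 2 and 0.902% of BGB-283 D4 replicate 3, and 0.0232% to 0.353% elsewhere. The CASSQER chain, which differs from it at 1 residue, was not found in any control library and peaked at 1.82% in trametinib D11 replicate 2. Both were listed in 2 libraries, trametinib D11 replicate 3 and BGB-283 D11 replicate 3.

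The largest cluster of similar members used TRBV19 and TRBJ2-7. Clonotypes with the same V, J and CDR3 length that differ at 1 residue were called neighbours, and 6 members are joined by such steps. In each, the core lies between CASS and YEQYF. The 3 below show both of its forms, with T or L between the glycines.
TRBV19/TRBJ2-7, 8 libraries, highest share 0.870%: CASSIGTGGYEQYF
TRBV19/TRBJ2-7, 6 libraries, highest share 0.113%: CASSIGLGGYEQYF
TRBV19/TRBJ2-7, 4 libraries, highest share 0.348%: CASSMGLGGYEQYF
The other 3 have the cores TGTGG, in 6 libraries with a highest share of 2.06%, SGTGA, in 6 libraries with a highest share of 0.250%, and SGTGG, in 4 libraries with a highest share of 2.95%.

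At least 1 of the 6 was found in 18 of 23 libraries: 3 control, 4 trametinib, 6 BGB-283 and 5 combination. In 8 libraries 2 or more occurred together, and 1 library held all 6. Their summed share was highest in trametinib D11 replicate 3, at 4.15% of TRB counts. There the chain with core SGTGG was 2.95%, that with TGTGG 1.08% and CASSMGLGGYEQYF 0.127%. The TGTGG chain was also 2.06% of BGB-283 D4 replicate 3 and 0.868% of control D11 replicate 2. Of all 74 TRBV19/TRBJ2-7 clonotypes with G, any residue and then G or A in this place, these 6 were public.

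Neighbours were common among public clonotypes. Among all TRB clonotypes of the data, 91 of 93 members, or 97.8%, had at least 1 neighbour, against 49.0% of all 35389, and the median number was 8 against 0. Among the members themselves 26 had a member neighbour, in 11 clusters. The CDR3 of 45 members, or 48.4%, was also listed with another V or J segment, against 12.9% of all TRB clonotypes. The CDR3 with core SGTGG was public with TRBV19 and with TRBV16, both joined to TRBJ2-7.

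TRBV29 gave public clonotypes that were many and small. Its 17 members never reached 1% of a library: their highest shares ran from 0.00910% to 0.502%, with a median of 0.0361%. Of these, 7 start with CASSPGQ, a start held by 113 TRB clonotypes and picked after the values were seen, and they are shown because they share this start and differ after it, in the J end and the residue before it.
TRBV29/TRBJ2-1, 8 libraries, highest share 0.0728%: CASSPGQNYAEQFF
TRBV29/TRBJ1-1, 7 libraries, highest share 0.0944%: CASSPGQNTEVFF
TRBV29/TRBJ2-4, 5 libraries, highest share 0.0361%: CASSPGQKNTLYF
TRBV29/TRBJ2-1, 4 libraries, highest share 0.0515%: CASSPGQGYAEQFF
TRBV29/TRBJ2-7, 4 libraries, highest share 0.0278%: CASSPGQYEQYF
TRBV29/TRBJ1-1, 4 libraries, highest share 0.0152%: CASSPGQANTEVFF
TRBV29/TRBJ2-7, 4 libraries, highest share 0.00910%: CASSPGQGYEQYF

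None of these 7 was found in a control library, and of all 93 members 39 were. All 7 stayed under 0.1%, and of the 42 members under 0.1% only 7 were found in control, 16.7%. With the shorter start CASSPG, 8 TRBV29 members are counted. The one added, which starts with CASSPGN and uses TRBJ2-1, was highest in control D11 replicate 2, at 0.0257%. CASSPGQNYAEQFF had counts of 38, 43 and 3 in 3 trametinib libraries, 15 and 12 in 2 BGB-283 libraries and 61, 29 and 61 in 3 combination libraries. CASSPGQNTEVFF was highest in trametinib D11 replicates 1 and 3, at 0.0780% and 0.0944%, and lay at 0.0153% or less in the other 5 libraries that held it. The 17 TRBV29 members together were listed 76 times, 29 times with combination, 25 with trametinib, 19 with BGB-283 and 3 without drug. Listings of all TRB clonotypes were also fewest without drug. Their mean number per library was 3355 in combination, 1417 in trametinib, 1031 in BGB-283 and 475 in control. Control libraries held 214 to 749 TRB clonotypes and combination libraries 1074 to 5172, and the part of this in the absence of small members from control libraries was not tested.

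Other public clonotypes were large in 1 library and small elsewhere. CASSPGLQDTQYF of TRBV16/TRBJ2-5 made up 25.0% of TRB counts in control D4 replicate 2 and 1.87% in control D4 replicate 3. It was 0.163% of combination D11 replicate 3 and 0.00656% of combination D4 replicate 2, a count of 18. It was listed at 0 in every trametinib and BGB-283 library. The 9 others among the 10 members with the highest share in a library are given here by their sequence and their highest share.
TRBV12-1/TRBJ2-7, 8.37% in combination D4 replicate 2: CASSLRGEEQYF
TRBV16/TRBJ1-1, 7.02% in BGB-283 D11 replicate 2: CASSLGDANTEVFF
TRBV2/TRBJ2-5, 5.76% in trametinib D4 replicate 3: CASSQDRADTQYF
TRBV1/TRBJ2-3, 5.45% in trametinib D4 replicate 3: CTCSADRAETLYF
TRBV3/TRBJ1-4, 5.31% in trametinib D4 replicate 2: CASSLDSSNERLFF
TRBV16/TRBJ1-1, 4.49% in control D11 replicate 1: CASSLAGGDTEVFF
TRBV13-3/TRBJ2-5, 4.11% in trametinib D4 replicate 2: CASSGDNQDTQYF
TRBV3/TRBJ2-5, 4.09% in combination D4 replicate 3: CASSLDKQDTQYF
The last of them is the TRBV19/TRBJ2-7 chain with core SGTGG, at 2.95% in trametinib D11 replicate 3.

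Their second values were much lower for most. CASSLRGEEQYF was 0.991% of BGB-283 D11 replicate 1, 0.915% of trametinib D4 replicate 3 and 0.00268% of control D4 replicate 3, a count of 5. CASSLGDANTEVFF was 0.00650% to 0.226% in the other 4 libraries that held it. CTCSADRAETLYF was 1.63% of combination D4 replicate 2, 0.0295% of control D4 replicate 3 and 0.00378% of BGB-283 D11 replicate 3. A very low count beside a very high one was rare: 3 of 471 listings of members were under 0.1% of that member's highest count, and 90 clonotypes were public with such listings taken as absent. The 3 belong to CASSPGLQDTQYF, with a lowest count of 18 and a highest of 23746, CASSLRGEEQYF, with 5 and 22944, and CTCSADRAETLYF, with 8 and 10550. Each was found in exactly 4 libraries, so these large members, among them the one at 25.0%, are public only through that listing.

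Size and sharing with control libraries went together among the members, but the 2 are not independent, since a control listing also enters the highest share. Of the 24 members that reached 1% in a library, 19 were found in control and 13 in all 4 treatments. Of the 27 with a highest share from 0.1% to under 1%, 13 were found in control and 5 in all 4 treatments. Of the 42 under 0.1%, 7 were found in control and 2 in all 4 treatments. Members that reached 1% did so in 1 library in most cases, and 5 did so in 2 or more. A listing in a control library with few TRB counts gives a high share at a low count. In control D4 replicate 1, clonotypes found in under 3 libraries of other treatments had a median count of 44 among 34553 TRB counts. In control D11 replicate 1 this median was 35 among 32534. The part of this in the pattern was not tested.

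TRBV16 was the segment of most members. It was used by 23 members, 24.7%, against 14% of all TRB clonotypes. Of these, 18 start with CASSL, a start picked after the values were seen. TRBV16 chains with this start were 19.4% of members and 6.30% of all TRB clonotypes. Of all 4950 TRBV16 clonotypes, 2230 had it. TRBV19 and TRBV29 were used by 17 members each, 18.3%, against 10.9% and 13.2% of all. TRBV3 was used by 9 members, TRBV2 by 5 and TRBV5, TRBV12-1 and TRBV13-2 by 4 each. TRBV1 and TRBV12-2 had 3 each, and TRBV4, TRBV13-3, TRBV15 and TRBV20 had 1 each. TRBV2 was used by 5.38% of members against 2.61% of all TRB clonotypes.

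Among J segments TRBJ2-7 led with 27 members, 29.0% against 20.3% of all. TRBJ2-1 and TRBJ2-5 had 15 each, TRBJ1-1 had 11, TRBJ2-4 had 7, TRBJ1-4 and TRBJ2-3 had 6 each, TRBJ1-2 had 4 and TRBJ1-3 had 2. The TRBJ2 cluster as a whole was used by 70 members, 75.3% against 69.7% of all, and by 76.0% and 77.2% of clonotypes found in 2 and 3 libraries. No member used TRBJ1-5, TRBJ1-6 or TRBJ2-2, nor TRBV13-1, TRBV14, TRBV17, TRBV21, TRBV22, TRBV23, TRBV24, TRBV26, TRBV30 or TRBV31. A count of 0 of 93 allows a share of up to 3.23%, for counting error only. TRBV17 at 5.82% and TRBJ2-2 at 5.51% of all TRB clonotypes lie above that limit, and the other segments with no member lie below it. The limit takes members as independent, though 26 had a member neighbour. These segments were also picked for having no member, so no depletion is read from it.

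**Figure D2:**
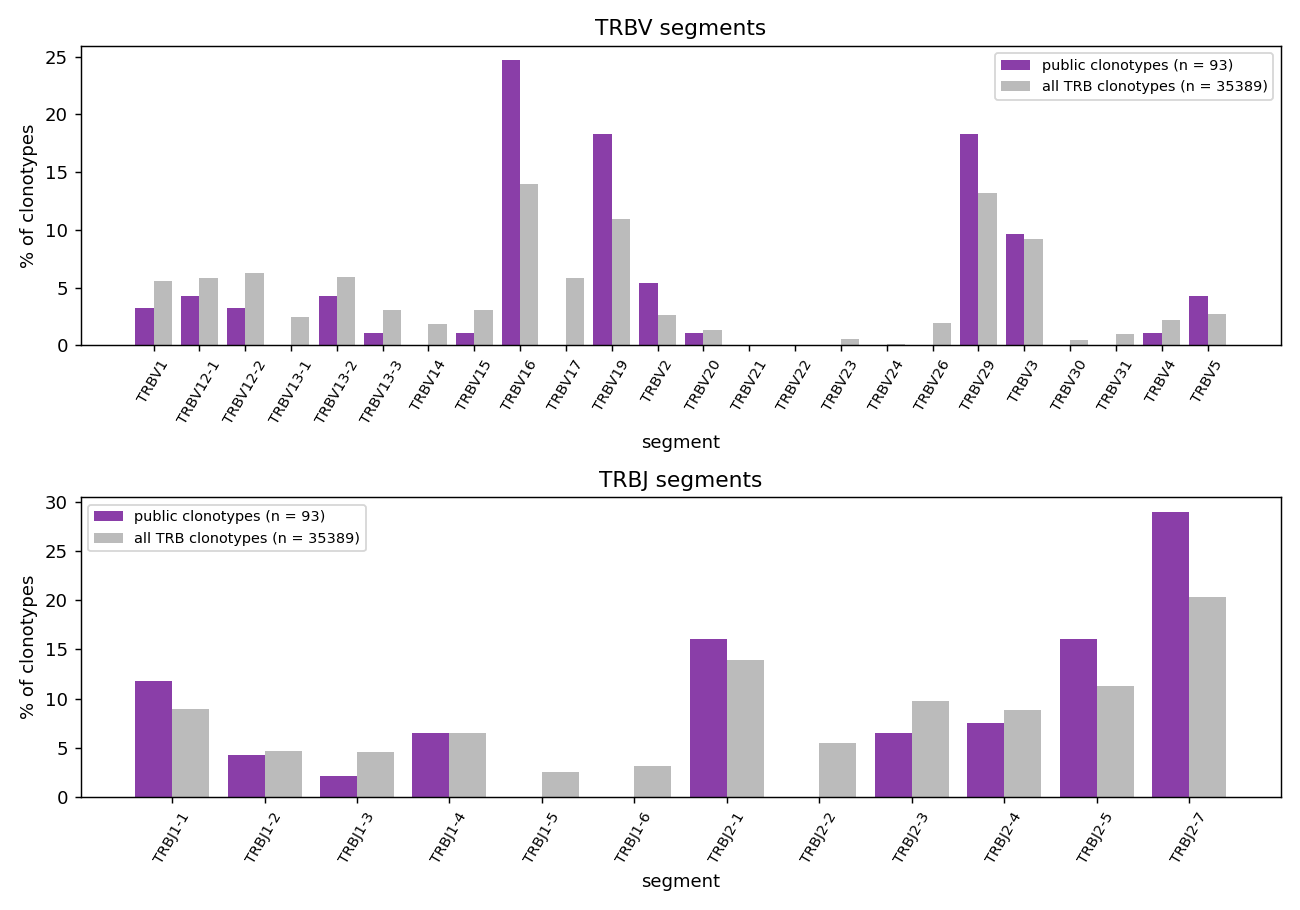
Percent of clonotypes that use each TRBV segment (top) and each TRBJ segment (bottom), for the 93 public clonotypes (purple) and all 35389 TRB clonotypes (grey). TRBV16 holds 24.7% of public clonotypes against 14% of all, and TRBJ2-7 holds 29.0% against 20.3%.

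Segment use was tested with each member counted once, in the library where its share was highest, against the other clonotypes of that library, by a sign-flip permutation test over the 23 libraries with Benjamini-Hochberg adjustment over the segments. TRBV16 was 9.40 percentage points higher in members, in 13 of 23 libraries, and did not pass (permutation p = 0.0392, adjusted 0.0855). TRBJ2-7 was 8.85 points higher, in 12 of 23 libraries, and did not pass (permutation p = 0.0946, adjusted 0.284). No segment was called higher, 0 of 12 TRBJ and 0 of 24 TRBV, where TRBV16 alone had an unadjusted permutation p under 0.05. The test called 3 of 12 TRBJ segments (25.0%) and 10 of 24 TRBV segments (41.7%) lower, and these are exactly the segments with no member. A segment with no member cannot differ upwards in any library, so these calls follow from how the test is built and nothing is read from them.

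CDR3 loops of public clonotypes were shorter than those of other clonotypes and held fewer residues outside the common V start and J end. Mean CDR3 length was 13.4 ± 1.11 residues (SD, n = 93 members) against 14 ± 1.48 in the 35296 clonotypes found in fewer than 4 libraries. Lengths 13 and 14 held 36.6% and 39.8% of members, against 20.2% and 29.8% of the others, and lengths 15 and 16 held 5.38% and 3.23% against 21.8% and 10.2%. Within libraries members were 0.538 residues shorter, in 18 of 23 libraries (sign-flip permutation test, two-sided, p = 6.0e-04). The shorter loop was not limited to the members: mean length was also 13.5 residues in clonotypes of 2 libraries and of 3, and 14 in those of 1.

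The core was counted as the residues left after matching the commonest start of each V and the commonest end of each J in these data, since no germline sequence was used. It had 3.70 ± 1.06 residues in members and 4.59 ± 1.62 in the others. Within libraries the difference was -0.898 residues, in the same direction in 22 of 23 libraries (sign-flip permutation test, two-sided, p = 1.0e-05, the smallest that the draws can give). Mean core length was 4.61 in clonotypes of 1 library, 3.85 in those of 2 and 3.76 in those of 3. Cores of 7 or more residues were not found in any member, and no member lacked a core residue altogether.

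**Figure D3:**
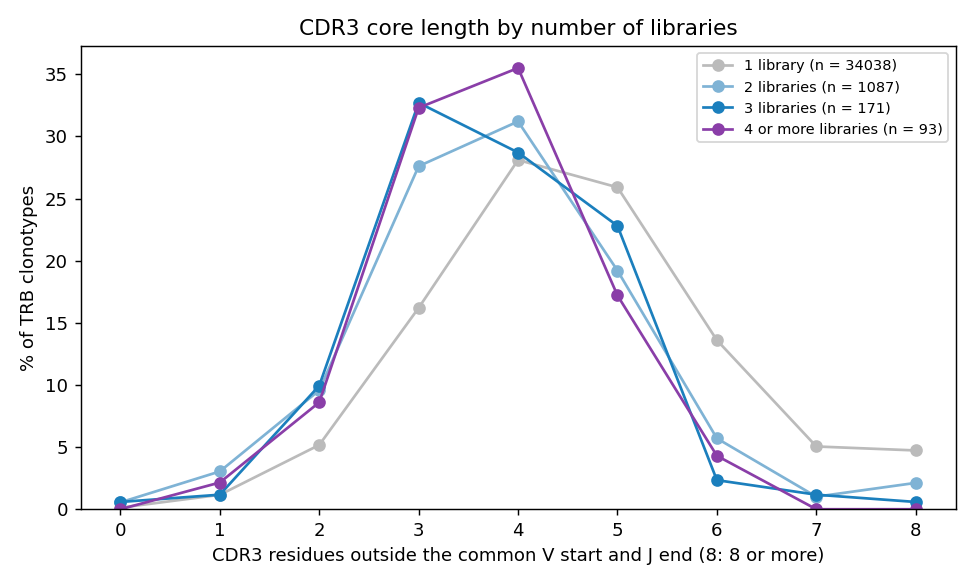
Percent of TRB clonotypes (vertical axis) with each number of CDR3 core residues (horizontal axis, 8 standing for 8 or more), by the number of libraries in which a clonotype was found. Cores of 3 and 4 residues hold 32.3% and 35.5% of clonotypes found in 4 or more libraries, and cores of 4 and 5 hold 28.1% and 25.9% of those found in 1.

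Motifs that resemble the reading frames of the D segments were counted in the CDR3. A Dbeta2-like motif (GLG, DWG or TGG) was in 19 members, 20.4% against 14.7% of all TRB clonotypes. DWG alone was in 9 members, 9.68% against 5.92%, among them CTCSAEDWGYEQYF. A Dbeta1-like motif (GQG, GTG or DRG) was in 9 members, 9.68% against 11.2%. The Dbeta1-like and Dbeta2-like lists overlap, since GTGG holds both GTG and TGG. Members with the cores IGTGG, TGTGG and SGTGG count in both, so these shares do not separate the D segments. The Vbeta8 family, TRBV13-1 to TRBV13-3, gave 5 members, 5.38% against 11.4%. The segments known to pair with the invariant alpha chain of NKT cells (the Vbeta8 family, TRBV29 and TRBV1) gave 25 members, 26.9% against 30.2%. These shares are descriptions, and no test was run on them.

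Libraries with more TRB clonotypes mostly held more public ones. They held 3 to 45 members, of 214 to 5172 TRB clonotypes. The combination D4 libraries held 19, 45 and 33 members and the combination D11 libraries 15, 40 and 17. The trametinib libraries held 7, 17 and 22 at D4 and 31, 14 and 26 at D11. The BGB-283 libraries held 21, 27 and 27 at D4 and 13, 25 and 19 at D11. The control libraries held 7, 15 and 21 at D4 and 3 and 7 at D11. Both replicates 1 of combination departed from this order, with 19 members among 3584 TRB clonotypes at D4 and 15 among 2256 at D11, fewer than trametinib D11 replicate 1 with 31 among 2194. So did others, such as control D4 replicate 3 with 21 among 696, against 7 among 749 in control D11 replicate 2.

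Relative to the number of clonotypes the order was different. Members were 0.910% ± 0.363 (SD, n = 6) of TRB clonotypes in combination libraries, 1.34% ± 0.260 (n = 6) in trametinib, 2.24% ± 0.436 (n = 6) in BGB-283 and 2.37% ± 1.29 (n = 5) in control. Control libraries lay at 3.02% to 3.61% at D4 and at 0.935% to 1.01% at D11. BGB-283 libraries, at 1.79% to 2.98%, did not overlap with trametinib libraries, at 0.955% to 1.70%. With every library thinned to the 32534 TRB counts of the shallowest, the mean shares were 2.42% for control, 2.31% for BGB-283, 1.38% for trametinib and 0.998% for combination. The thinned libraries still differed in the number of clonotypes, the denominator of these shares. Its mean was 460 in control, 940 in BGB-283, 1333 in trametinib and 2555 in combination. The part of this in the order of treatments was not tested. The rule used presence in all 23 libraries, so these values carry no test.

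By counts, members made up 1.11% to 33.1% of a library. Means were 9.81% ± 13.1 (SD, n = 5) in control, 7.34% ± 5.24 (n = 6) in trametinib, 5.28% ± 3.36 (n = 6) in BGB-283 and 5.19% ± 4.40 (n = 6) in combination. The control mean rests on control D4 replicate 2, at 33.1%, and the other 4 control libraries had 3.99% ± 2.03. All 4 treatments overlapped.

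**Figure D4:**
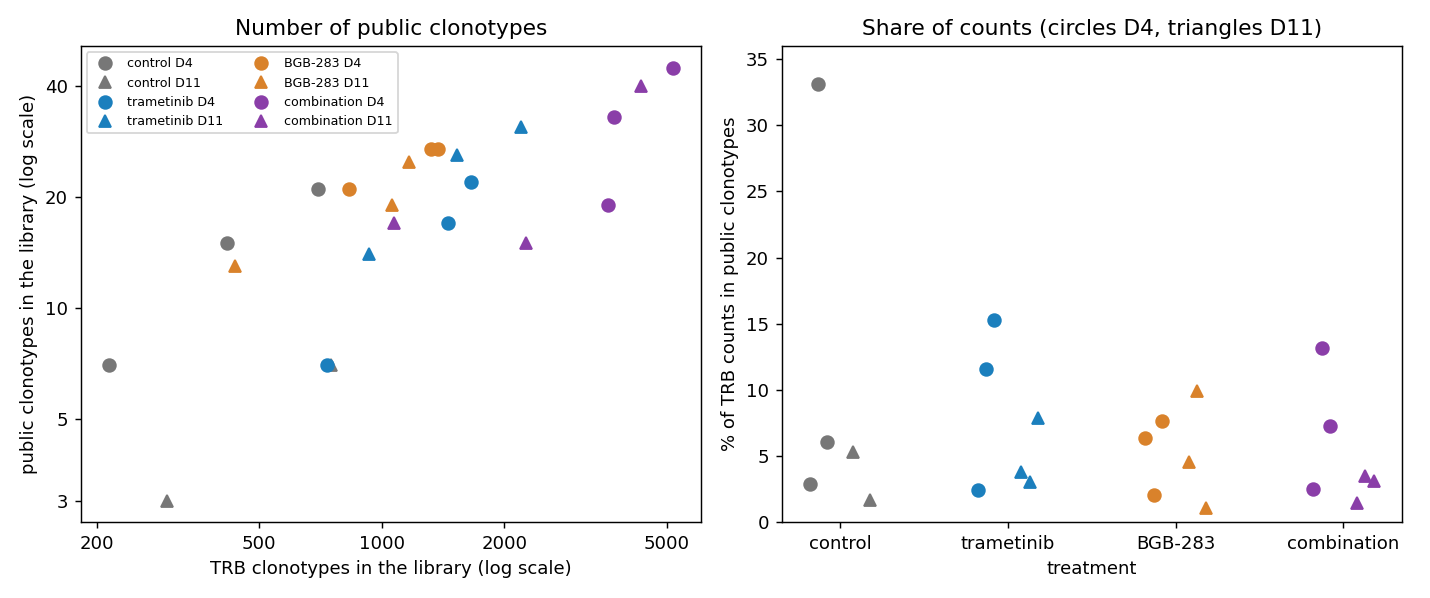
Left, number of public clonotypes against number of TRB clonotypes in each of the 23 libraries, both on log scales. Right, percent of TRB counts in public clonotypes by treatment, each point 1 library; control D4 replicate 2 stands at 33.1%, and the other 22 libraries lie between 1.11% and 15.3%.

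To compare treatments and days, public clonotypes were defined anew for each comparison, so that no library was measured with a set it helped to choose. For 2 treatments, a clonotype was held-out public if found in 2 or more libraries of the other 2 treatments. For D11 against D4, it was held-out public in a library if found in 3 or more libraries of the other 3 treatments. Labels were permuted within day, or within treatment for the day comparison, in exact two-sided tests adjusted by Benjamini-Hochberg over the 6 comparisons. The smallest p possible was 0.00500 between treatments.

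As a share of TRB clonotypes, held-out public clonotypes did not pass in any of the 6 comparisons. The sets held 333, 715 and 832 clonotypes for combination, trametinib and BGB-283 against control. They held 141 for combination against trametinib and 193 for combination against BGB-283. The sizes of the differences are therefore not comparable between comparisons. Combination libraries had 0.977% ± 0.205 (SD, n = 6) and control libraries 2.22% ± 1.24 (SD, n = 5), a stratified difference of -1.04 points (exact permutation p = 0.0750, adjusted 0.150). The difference was -2.19 points at D4, where the groups did not overlap, and 0.114 points at D11. Against trametinib, combination was lower by 0.289 points (a difference of -0.289, exact permutation p = 0.050, adjusted 0.150), and against BGB-283 the difference was -0.560 points (exact permutation p = 0.0450, adjusted 0.150). Trametinib and BGB-283 against control differed by -0.530 and -0.502 points (exact permutation tests, adjusted p = 0.252 and 0.385). These averages join opposite days. Trametinib was at -1.58 points from control at D4 and 0.522 at D11, BGB-283 was at -1.85 and 0.849, and neither overlapped with control on either day. For BGB-283, for example, the D4 libraries lay at 2.70% to 3.12% against 3.59% to 5.61% in control, and the D11 libraries at 2.26% to 2.75% against 1.68% to 1.74%. D11 against D4 differed by -0.445 points (exact permutation test, adjusted p = 0.218).

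As a share of TRB counts, 2 of the 6 comparisons passed. The 333 clonotypes shared among single-drug libraries made up 11.1%, 14.5% and 9.61% of counts in the combination D4 libraries and 3.26%, 6.19% and 2.95% in the control D4 libraries. At D11 they made up 1.65%, 2.40% and 3.49% in combination and 1.32% and 1.64% in control. Every combination library was above the control libraries of its day. The stratified difference was 4.32 points, 7.60 at D4 and 1.03 at D11 (exact permutation p = 0.010, adjusted 0.0300). The set was drawn from libraries given 1 of the drugs in the combination, while control libraries had no drug. Combination libraries also held more of the 333, at 14 to 46, than control libraries, at 3 to 16. The part of either in the difference was not tested.

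That call was lost under several other settings. Without its largest clonotype, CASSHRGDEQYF of TRBV12-2/TRBJ2-7, which was 8.46% of combination D4 replicate 1 and is not public by the rule itself (3 libraries), the difference was 2.91 points (exact permutation p = 0.150, adjusted 0.300). With 1 more library required in the definition it was 0.403 points (adjusted p = 0.618 by exact permutation), and for the 93 members themselves it was -3.58 points. With the replicate block it was 4.78 points (exact permutation p = 0.0625, the smallest that block can give, adjusted 0.188), and without both shallowest control libraries 4.02 points (exact permutation p = 0.050, adjusted 0.150), neither of them called. It was also not called in 12 of 23 runs that each left out 1 library, with differences of 2.23 to 4.85 points over all 23. The 12 were control D11 replicates 1 and 2, trametinib D4 replicates 2 and 3, trametinib D11 replicates 1 and 2, all 3 BGB-283 D4 replicates, BGB-283 D11 replicates 1 and 3 and combination D4 replicate 2.

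At D11 the held-out public clonotypes made up less of the counts than at D4. The share was 2.49% ± 1.64 (SD, n = 11) at D11 and 6.18% ± 4.38 (SD, n = 12) at D4, a stratified difference of -3.79 points (exact permutation p = 0.00680, adjusted 0.0300). The D4 libraries ranged from 1.77% to 15.1%, with the highest in trametinib D4 replicate 3, combination D4 replicate 2 at 12.4% and trametinib D4 replicate 2 at 10.3%. The D11 libraries ranged from 0.567% to 6.42% and overlapped with D4. The sets were chosen from libraries of both days in the other treatments. D4 had 12 libraries with a mean of 1764 TRB clonotypes, and D11 had 11 with a mean of 1457. The part of this in the difference was not tested. With 1 more library required the difference was -2.24 points (exact permutation test, adjusted p = 0.0641), and 9 of 23 runs without 1 library did not call it, with differences of -4.71 to -2.32 points. The 9 were control D11 replicates 1 and 2, trametinib D4 replicates 2 and 3, trametinib D11 replicates 1 and 2, BGB-283 D4 replicate 3 and BGB-283 D11 replicates 1 and 3. With the replicate block it was also not called (-3.96 points, exact permutation test, adjusted p = 0.0527).

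The other 4 comparisons by counts did not pass, with differences of 0.0891 points for trametinib and -2.23 for BGB-283 against control, and -0.821 against trametinib and -0.457 against BGB-283 for combination (exact permutation tests, adjusted p from 0.990 to 0.995). A mean near 0 here joins opposite days: trametinib against control was -4.43 points at D4 and 4.61 at D11, BGB-283 against control -6.73 and 2.27, and combination against BGB-283 3.45 and -4.36. Control D4 replicate 2, at 31.2% and 35.0% in the first 2 of these comparisons, was far above the other control D4 libraries. Whether a treatment difference changed between D4 and D11 was tested in 10 comparisons and passed in none after adjustment, with the lowest adjusted p at 0.125 by exact permutation. Of the unadjusted values, 2 were under 0.05, both for shares of clonotypes: combination against control (0.0200) and trametinib against control (0.0250).

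**Figure D5:**
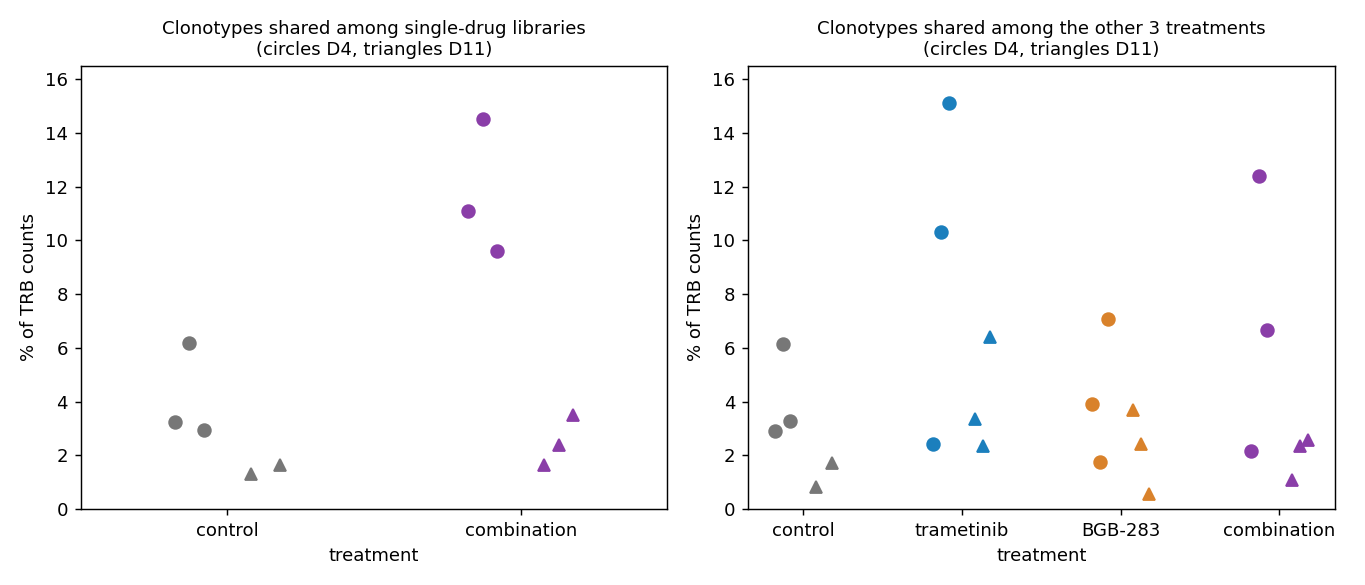
Percent of TRB counts in held-out public clonotypes, each point 1 library, circles for D4 and triangles for D11. Left, clonotypes shared among single-drug libraries, with combination D4 at 9.61% to 14.5% and control D4 at 2.95% to 6.19%; right, clonotypes shared among the other 3 treatments, by treatment and day.

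Within libraries, a held-out public clonotype had more counts than the other clonotypes. The difference of mean log2 counts was 1.74 ± 0.599 (SD over 23 libraries), or 3.33-fold, and it was positive in 23 of 23 libraries (sign-flip permutation test, p = 1.0e-05, the smallest that the draws can give). Libraries share clonotypes, so this p is too small. The lowest difference was 0.288 in control D4 replicate 1, with 7 such clonotypes, and the highest 2.57 in trametinib D4 replicate 3, with 18. By median count the held-out public clonotypes were higher in 22 of 23 libraries, and lower in BGB-283 D4 replicate 1, at 33.0 against 37.0.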

How the data were processed

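The T cell receptor table was deposited by the authors as counts per clonotype and library, and the lowest count listed is 3; what 1 count stands for (reads or molecules) is not given in the sources used here. Libraries were made with the QIAseq Immune Repertoire kit, per the labels, and GRCh38, which is the human assembly, is the build listed in the submitters' processing notes; the aligner is not given in the sources used here, and no coordinates were used. TRB counts ran from 32534 to 320420 per library. Of 35571 TRB entries, 182 with an unresolved residue (0.0421% of TRB counts) were left out. All 24 TRBV and 12 TRBJ names were matched in the RefSeq gene table.

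Shares, held-out definitions, permutation tests (100000 draws for sign-flips), 20 thinning draws and Benjamini-Hochberg adjustment at 0.05 were computed in Python 3.11.15 with numpy 2.4.6 and pandas 2.3.3, and tested on simulated data. No test was run per clonotype, since most were listed in 1 library. The members and lists were chosen with earlier results of these data known. Members named by rule were the 20 in the most libraries, the 10 with the highest share in a library and those confined to 1 treatment, of which there were none; sequences shown for a shared start or a cluster were added after their values were seen, as were the neighbour and shared-CDR3 counts. No pairing by replicate number was seen: of 28 pairs of groups, 1 had every same-number correlation above 0.1. With at most 3 libraries per group, this cannot exclude a pairing.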

Additional observations from a re-analysis of the deposited data

Results flagged for a closer look

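In control D4 replicate 2, public clonotypes made up 33.1% of TRB counts, far above the other 4 control libraries (3.99% ± 2.03, SD, n = 4). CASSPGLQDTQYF of TRBV16/TRBJ2-5 alone was 25.0% of that library, and the other members there 8.03%. In combination D11 replicate 3, public clonotypes were 1.58% of TRB clonotypes, against 0.775% ± 0.170 (SD, n = 5) in the other combination libraries; this library had 1074 TRB clonotypes, the fewest of its treatment. Both stood out by the gap to the nearest library of the same treatment, among 8 such sets examined, and chance marks about 1 in 20 sets.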

How the results depend on the processing

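The number of public clonotypes follows the rule: 264 with 3 or more libraries, 37 with 5 or more, 43 with presence from 20 counts, 307 by CDR3 alone, and 67 to 93 with each library left out in turn. The differences in CDR3 length (-0.595 to -0.382), core length (-0.976 to -0.801) and count per clonotype (log2 1.63 to 1.91) kept their direction and their call in each of those runs and under the other alternatives tried for them. With all held-out public clonotypes of each library, 3 TRBJ and 3 TRBV segments were called higher and 5 TRBJ lower; presence from 20 counts called 1 TRBV higher, and runs without 1 library called 0 or 1.

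For the share of counts, combination against control was 4.32 points: 0.403 with 1 more library required, -3.58 by the rule itself, 4.78 with the replicate block (exact permutation p = 0.0625, the smallest it can give, adjusted 0.188, so that it could not pass), 4.02 without both shallowest control libraries (exact permutation p = 0.050, with few regroupings left) and 2.91 without the largest clonotype, none of them called, and 2.23 to 4.85 in runs without 1 library, 12 of 23 not called. D11 against D4 was -3.79 points: -2.24 with 1 more library, -5.14 by the rule itself, -3.96 with the replicate block (exact permutation test, adjusted p = 0.0527), -3.80 without both shallowest control libraries, none called, and -4.71 to -2.32 without 1 library, 9 of 23 not called. The settings without both shallowest control libraries and without the largest clonotype were chosen after seeing the data; the cause of the lost calls was not tested.

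Comparisons that did not pass also turned direction. BGB-283 against control by clonotypes was 0.00783 with 1 more library, 0.108 by the rule itself, 0.0889 from 20 counts and -0.811 to 0.0319 without 1 library. By counts it was 0.802 with 1 more library, 3.70 from 20 counts, 2.26 with counts under 0.1% of the highest taken as absent and 2.26 without the largest clonotype, and -5.33 to 2.39 without 1 library. Trametinib against control by counts was -1.42 by the rule itself, -1.20 with the replicate block, -0.279 in estimated molecules, -2.28 without both shallowest control libraries and -2.13 to 4.71 without 1 library. Combination by counts was -2.30 to 0.963 against trametinib and -2.05 to 1.44 against BGB-283 without 1 library. By clonotypes, combination against BGB-283 was called only by the rule itself (-1.33), and combination against trametinib only without combination D11 replicate 3 (-0.383, range -0.383 to -0.214).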
